A study of Mus musculus with 8 samples.

Results

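Non-canonical Wnt signalling and planar cell polarity were described through 10 genes in embryonic mouse amygdala: the ligand Wnt5a, the receptors Ror1, Ror2 and Ryk, the polarity proteins Vangl1, Vangl2, Celsr1, Celsr2 and Celsr3, and the Dishevelled-binding regulator Dact1. The 10 genes were listed by name out of the 32543 genes in the deposited tables. They were chosen on their measured knockout against control values in these libraries, so those differences are given below as a description: standard errors, intervals and counts of calls are printed for their size, and no support is drawn from them. RNA came from GFP-positive cells sorted at E16.5, labelled as amygdalar intercalated cells (ITCs), clusters of GABAergic inhibitory neurons between the nuclei of the amygdala. The knockout group held 4 libraries from Tshz1 GFP/RA embryos and the control group 4 libraries from Tshz1 GFP/+ embryos. Embryos of both groups carried the GFP allele of Tshz1 on an outbred background, and the other copy was the RA allele in the knockouts and the wild-type allele in the controls. What the RA allele lacks is not stated in the labels. Each library was a pool of tissue from several embryos of 1 genotype, and its title begins with NX, NY, QT or RM, each prefix being used for 1 knockout and 1 control library.

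Wnt ligands that do not stabilise beta-catenin act through Frizzled, Ror and Ryk receptors on the actin cytoskeleton and on intracellular calcium. Planar cell polarity is the related system of Frizzled, Celsr and Vangl proteins, together with Dishevelled and Prickle. Placed unevenly along the boundaries of neighbouring cells, they give a tissue a direction. In the developing nervous system these proteins are known for the steering of axons and the migration of neurons; in mouse, loss of Celsr3 or of its partner Fzd3 disrupts major forebrain axon tracts. Dact1 binds Dishevelled and, in mouse, also acts on Vangl2 at the cell membrane.

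All 10 genes are annotated as protein-coding in GENCODE on GRCm38, the assembly that mm10 names. Wnt5a spans chr14:28504750-28527448 on the plus strand, and Dact1 spans chr12:71309884-71320107 on the plus strand. Celsr2 (chr3:108390851-108415552) and Celsr1 (chr15:85898929-86033777) are on the minus strand, and Celsr3 (chr9:108826320-108852969) is on the plus strand. Vangl2 lies at chr1:172000960-172028444 and Vangl1 at chr3:102153583-102204693, both on the minus strand. Ryk (chr9:102834917-102908305) and Ror1 (chr4:100095791-100444765) are on the plus strand, and Ror2 (chr13:53109312-53286124) is on the minus strand. Exons of Wnt5a, Vangl1 and Dact1 overlap a transcript annotated on the opposite strand (Gm2670, Gm16160 and 4930474H06Rik), and an exon of Celsr3 overlaps the miRNA gene Gm23156 on its own strand. The library kit keeps no record of the strand, so fragments of such overlapping exons cannot be told apart.

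Upstream sequences were available for 7 of the 10 genes in a RefSeq promoter table on GRCm38.p6, and 2 are shown because these genes had the highest mean TPM of the set in control libraries and differed in opposite directions between genotypes. Each line gives the 250 bases before the annotated start, 5′ to 3′ on the gene's own strand, with matches to the 6 motifs searched in capitals.
Dact1 (chr12:71309634-71309883): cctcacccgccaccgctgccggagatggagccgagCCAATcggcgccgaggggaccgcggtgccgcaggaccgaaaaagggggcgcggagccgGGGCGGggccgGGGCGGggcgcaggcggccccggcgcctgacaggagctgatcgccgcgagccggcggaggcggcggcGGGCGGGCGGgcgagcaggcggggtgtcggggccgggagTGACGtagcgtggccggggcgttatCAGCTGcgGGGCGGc
Celsr2 (chr3:108415580-108415829): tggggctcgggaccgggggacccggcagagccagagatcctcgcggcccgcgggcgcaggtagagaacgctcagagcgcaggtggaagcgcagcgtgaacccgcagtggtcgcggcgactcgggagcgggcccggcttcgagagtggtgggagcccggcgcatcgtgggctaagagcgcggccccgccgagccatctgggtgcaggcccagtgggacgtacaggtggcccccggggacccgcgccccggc

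The motifs were the GC box GGGCGG, the TATA box TATAAA, the CCAAT box CCAAT, the TCF/LEF core CTTTGA, the E-box CAGCTG and the CRE half-site TGACG, each searched on both strands. The Dact1 window was 80.4% G and C and held 5 GC boxes, of which a pair overlapped each other, with 1 CCAAT box, 1 E-box and 1 CRE half-site. The Celsr2 window was 75.2% G and C and held no match to any of the 6, against a median of 52.4% G and C over all 32851 promoters of the table. Among all promoters of this length, 32.7% held a GC box, 12.4% a TATA box, 33.8% a CCAAT box, 13.8% a TCF/LEF core, 13.0% the E-box and 17.8% the CRE half-site. A GC box was present in 6 of the 7 members in the table, the exception being Celsr2. The TCF/LEF core, the sequence read by the beta-catenin branch of Wnt signalling, was present in Ror1 alone among the 7. A match describes the letters of the window and is not a measured binding site.

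Libraries held between 5785612 and 14535867 expected counts, the estimated fragments per gene that RSEM assigns. A floor of 3 counts in a library therefore stood for 0.186 to 0.544 CPM, which is the count scaled to a common library total, with TMM factors. Tshz1, the targeted gene, averaged 79.1 ± 29.4 CPM in knockout libraries and 381 ± 115 CPM in control libraries (SD, n = 4 each). Its groups did not overlap, at a log2 fold change of -2.27 with a standard error of 0.30 (edgeR's quasi-likelihood test, Benjamini-Hochberg adjusted p = 0.0388; exact two-sided permutation test, p = 0.0286, the smallest p that 70 orders allow). The adjusted p rose above 0.05, to between 0.0657 and 0.183, without the NY, QT or RM knockout library or without the NX, QT or RM control library, each left out alone. All 10 ITC markers looked at were above 0 in every library, with a summed level of 2746 to 3690 CPM in knockout and 3053 to 5283 CPM in control libraries; Tshz1 itself is among the 10. Markers of other cells were also present. The 12 cycling-cell markers, none of them at 0, summed to 195 to 1426 CPM in knockout and 142 to 874 CPM in control libraries. The 9 radial glial markers summed to 201 to 902 CPM in knockout and 122 to 728 CPM in control libraries, with Hes1 at 0 in 3 libraries. The 9 pallial glutamatergic markers summed to 181 to 541 CPM in knockout and 45.2 to 397 CPM in control libraries, with Emx1 at 0 in 3 libraries and Slc17a7 at 0 in 1. Microglial, vascular and oligodendrocyte lineage lists each stayed at or under 55.3 CPM in knockout and 132 CPM in control libraries, with 4 of 10, 9 of 11 and 2 of 5 markers at 0 in at least 1 library, among them C1qa, Cdh5, Pecam1 and Sox10. Fitted values were above 0 for 11 of the 12 cycling markers (median 0.95) and 6 of the 9 pallial markers (median 0.22). They were below 0 for all 10 ITC markers (median -0.46), all 8 tested microglial markers (median -1.05) and all 3 tested vascular markers (median -0.97). Below 0 were also 4 of the 5 oligodendrocyte lineage markers (median -0.41) and 5 of the 8 tested radial glial markers (median -0.07). Tshz1 was the 1 gene on these lists that passed the adjusted threshold. The NX library was the lowest of its genotype for each of these 6 other-cell lists. The highest 2 genes took 21.3% to 56.4% of a knockout library's TPM and 25.1% to 47.5% of a control library's. TPM, the deposited level per length, of all other genes moves with that share. The part of cell makeup in the differences below was not tested.

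Ordered by level per length, 6 of the 10 genes averaged above 9 TPM in both genotypes and 4 below 4 TPM. In knockout libraries the mean TPM was 108 ± 50.1 for Dact1, 37.1 ± 8.98 for Celsr2, 30.7 ± 5.72 for Celsr3, 22.3 ± 8.60 for Ryk, 18.7 ± 10.7 for Vangl2 and 9.46 ± 5.77 for Wnt5a (SD, n = 4). In control libraries it was 54.3 ± 12.6 for Celsr2, 41.5 ± 17.3 for Dact1, 36.7 ± 6.25 for Celsr3, 30.0 ± 19.4 for Wnt5a, 21.3 ± 8.41 for Vangl2 and 20.5 ± 7.34 for Ryk. The 4 lower genes followed, with Celsr1 at 2.59 ± 1.26 TPM in knockout and 3.54 ± 2.92 TPM in control libraries, Ror2 at 0.640 ± 0.447 and 1.37 ± 0.714 TPM, and Vangl1 at 0.610 ± 0.391 and 0.413 ± 0.478 TPM. Ror1 was at 0 in all 8 libraries. Neighbours in each order overlapped in their ranges, except that Ryk and Celsr1 did not overlap in control libraries, and that Celsr1 and Ror2, and Vangl1 and Ror1, did not overlap in knockout libraries. Wnt5a stood at rank 6 of 10 in knockout libraries and rank 4 in control libraries.

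**Figure D1:**
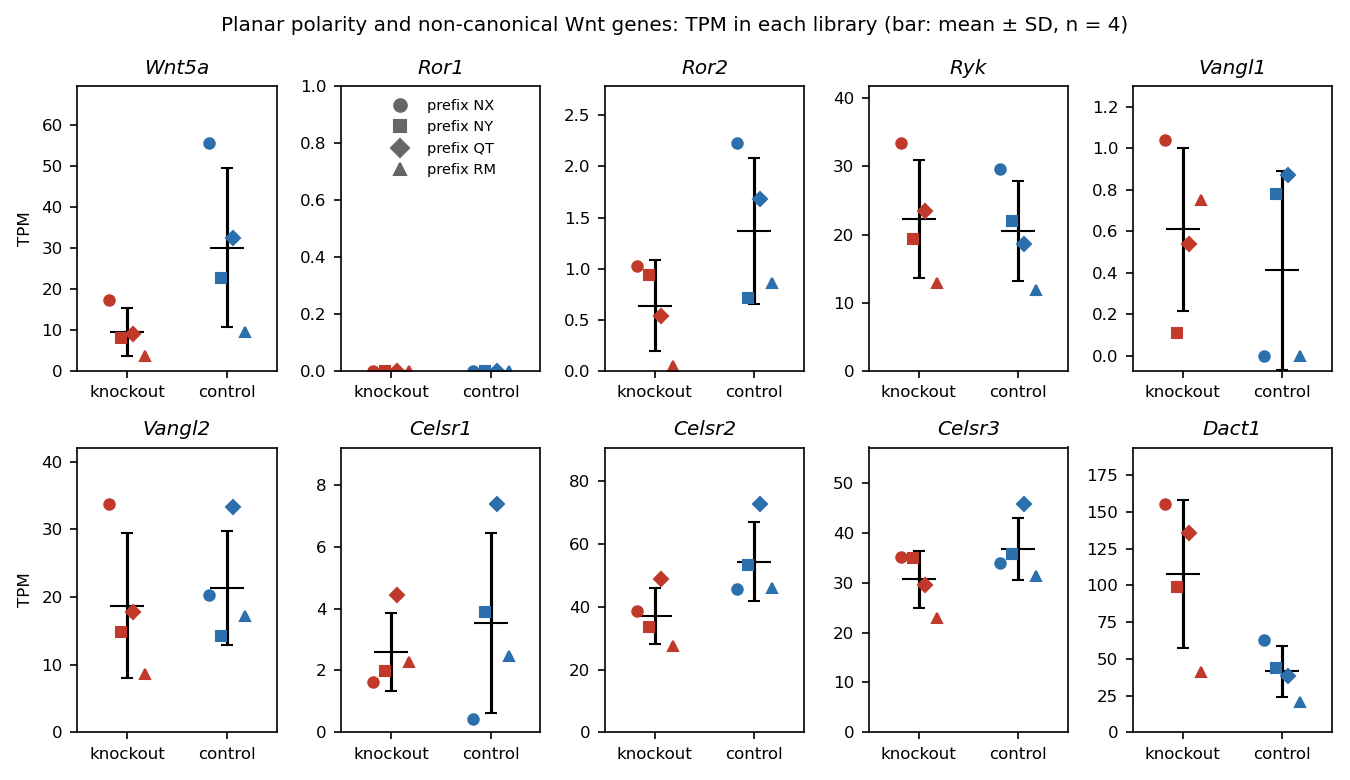
TPM (linear axis, a separate scale for each gene) of each member in the 4 knockout (red) and the 4 control (blue) libraries, with marker shapes for the title prefix and bars for mean ± SD. Dact1 knockout libraries sit at 41.20 to 155.07 TPM and Wnt5a control libraries at 9.52 to 55.53 TPM, while Ror2 and Vangl1 stay at or under 2.23 TPM.

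The ligand Wnt5a, a secreted protein that signals through Ror and Ryk receptors, was lower in knockout libraries in each of the 4 prefixes. It had 399, 200, 108 and 71 expected counts in the NX, NY, QT and RM knockout libraries, against 1542, 666, 799 and 125 in the NX, NY, QT and RM control libraries. On the scaled level this was 27.2, 16.6, 16.4 and 11.8 CPM in knockout, against 95.6, 49.3, 61.1 and 22.7 CPM in control libraries. The groups overlapped through the NX knockout library, which lay above the RM control library. Mean CPM was 17.996 ± 6.50 in knockout and 57.2 ± 30.2 in control libraries (SD, n = 4 each), which is 3.18-fold higher in control. Within prefixes, control exceeded knockout 3.52-fold in NX, 2.98-fold in NY, 3.72-fold in QT and 1.92-fold in RM. The fitted log2 fold change was -1.66 with a standard error of 0.39, and it was -1.30 without the NX control library. NX was the highest and RM the lowest library in both genotypes. The highest library exceeded the lowest 2.30-fold in knockout and 4.21-fold in control CPM. In TPM, which also moves with the share of the highest 2 genes, this was 4.88-fold in knockout and 5.83-fold in control. The highest Wnt5a levels thus stood in the NX libraries, which had the lowest other-cell marker sums. RM, lowest for Wnt5a, was not highest on every such list. Among controls it was highest for microglial markers (132 CPM) but below NY and QT for cycling markers (530 CPM), and below NY on the remaining lists. Among knockouts it was highest for radial glial (902 CPM), vascular (14.0 CPM) and oligodendrocyte lineage (53.1 CPM) markers. It was not the highest knockout library for cycling, pallial and microglial markers. The part of cell makeup in this order was not tested. The mean transcript length that RSEM assigned to Wnt5a was 3763 to 3992 bases in knockout and 3786 to 3958 bases in control libraries, ranges that overlap. In these bulk libraries, fewer cells with a transcript and less of it per cell cannot be told apart.

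Dact1, the cytoplasmic Dishevelled partner, differed in the opposite direction. It had 3474, 2322, 1611 and 761 expected counts in the NX, NY, QT and RM knockout libraries, against 1643, 1206, 908 and 262 in the NX, NY, QT and RM control libraries. In CPM the knockout libraries were at 237, 192, 245 and 127 and the control libraries at 102, 89.3, 69.5 and 47.6. Every knockout library lay above every control library on this scale. Mean CPM was 200.2 ± 54.2 in knockout and 77.1 ± 23.7 in control libraries (SD, n = 4 each), 2.60-fold higher in knockout. The fitted log2 fold change was 1.37 with a standard error of 0.28. Within prefixes, knockout exceeded control 2.32-fold in NX, 2.15-fold in NY, 3.53-fold in QT and 2.66-fold in RM. In TPM the groups overlapped, since the RM knockout library, at 41.20 TPM, lay below the NX and NY control libraries at 62.59 and 44.14 TPM; this knockout library is also the one in which the highest 2 genes took 56.4% of the TPM.

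The ratio of Dact1 to Wnt5a TPM does not depend on how a library is scaled. It was 8.92, 12.3, 15.3 and 11.6 in the NX, NY, QT and RM knockout libraries, against 1.13, 1.95, 1.19 and 2.17 in the control libraries. The lowest knockout ratio was above the highest control ratio. Because both genes were chosen on these same differences, which run in opposite directions, this separation is a description only. The mean ratio was 12.03 ± 2.62 in knockout and 1.61 ± 0.528 in control libraries (SD, n = 4 each). Within a genotype, in contrast, the libraries did not trade one gene for the other: RM was the lowest library for both Wnt5a and Dact1 in both genotypes, and NX was the highest control library for both.

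**Figure D2:**
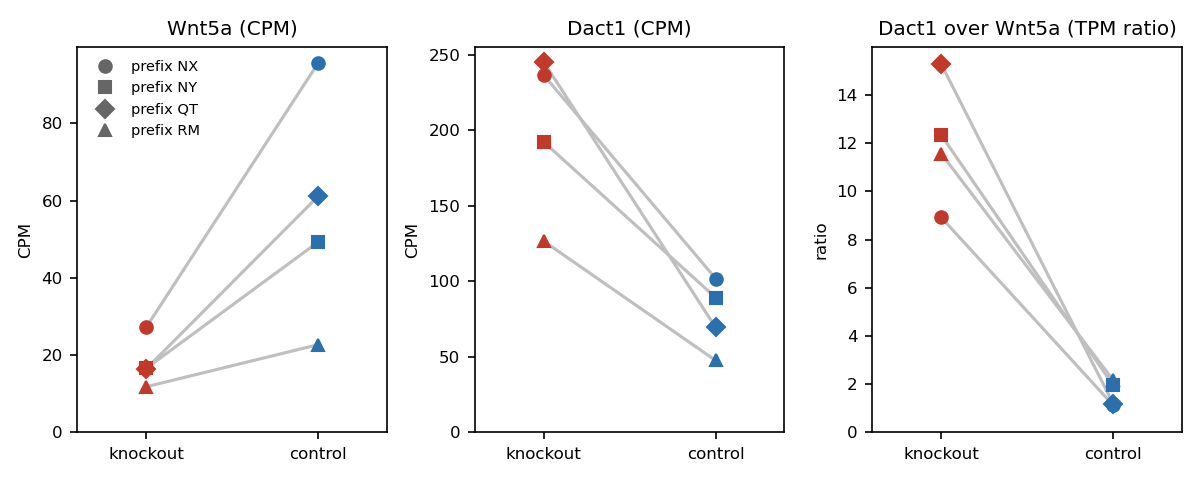
Wnt5a and Dact1 CPM and the ratio of Dact1 to Wnt5a TPM by library (linear axes from 0), knockout left of control, with lines joining the libraries that share a title prefix. All 4 lines of Wnt5a run lower in knockout and all 4 of Dact1 run higher, with Dact1 at 127 to 245 CPM in knockout and 47.6 to 102 CPM in control libraries and the ratio at 8.92 to 15.3 in knockout and 1.13 to 2.17 in control libraries.

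Of the receptors, Ryk, a Wnt-binding transmembrane protein with an inactive kinase domain, was the one measured well. It had 44.6, 33.1, 37.1 and 34.4 CPM in the NX, NY, QT and RM knockout libraries, against 42.4, 39.2, 29.3 and 24.2 CPM in the control libraries. The groups overlapped, with knockout higher in 3 prefixes and lower in NY. The fitted log2 fold change was 0.14 with a standard error of 0.24 and a 95% interval from -0.38 to 0.67. Ror2, the receptor tyrosine kinase through which Wnt5a is best known to act, was low. It had 25, 24, 7 and 1 expected counts in the NX, NY, QT and RM knockout libraries, against 64, 21, 43 and 12 in the control libraries, so 1 library, the RM knockout, lay under the floor of 3 counts. Its level was 1.23 ± 0.807 CPM in knockout and 2.75 ± 1.08 CPM in control libraries (SD, n = 4 each), with overlapping groups. The log2 fold change was -1.12 with a standard error of 0.72 and a 95% interval from -2.68 to 0.44. The paralogous receptor Ror1 had 0 counts in all 8 libraries, which allows up to 0.544 CPM in the shallowest library, and it was not tested.

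The Vangl proteins are multi-pass membrane proteins of the planar polarity core, and nearly all Vangl message was Vangl2, at 92.0% to 99.3% of the summed TPM of the pair in knockout and 94.8% to 100% in control libraries. Vangl2 had 29.9, 17.5, 18.7 and 15.3 CPM in the NX, NY, QT and RM knockout libraries, against 19.7, 17.8, 35.2 and 23.4 CPM in the control libraries. The groups overlapped throughout, with NX the highest knockout library and QT the highest control library. The log2 fold change was -0.24 with a standard error of 0.31, and it was 0.01 without the QT control library. Vangl1 had 27, 2, 7 and 15 expected counts in the NX, NY, QT and RM knockout libraries, against 0, 18, 16 and 0 in the control libraries. It is a trace transcript with no direction common to the prefixes, at a log2 fold change of 1.03 with a 95% interval from -1.47 to 3.54.

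The Celsr genes encode large adhesion receptors with cadherin repeats that bind one another across cell boundaries. Celsr2 and Celsr3, the members best known from postmitotic neurons, carried almost all Celsr message. Celsr2 made up 47.5% to 58.9% of the summed Celsr TPM in knockout and 57.1% to 57.8% in control libraries, and Celsr3 made up 35.7% to 49.6% in knockout and 36.4% to 42.3% in control libraries. Celsr2 had 173, 184, 231 and 214 CPM in the NX, NY, QT and RM knockout libraries, against 213, 293, 365 and 304 CPM in the control libraries. Knockout was the lower library in each prefix, by 1.23 to 1.59-fold, while the groups overlapped because the NX control library lay below the QT and RM knockout libraries. Mean CPM was 200.6 ± 26.4 in knockout and 294 ± 62.4 in control libraries (SD, n = 4 each), at a log2 fold change of -0.55 with a standard error of 0.21. Celsr3 had 178, 222, 178 and 231 CPM in the NX, NY, QT and RM knockout libraries, against 181, 236, 272 and 242 CPM in the control libraries. It too was lower in knockout in all 4 prefixes, but by 1.02 to 1.53-fold, at a log2 fold change of -0.20 with a standard error of 0.20.

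Celsr1, best known in mouse from progenitors and epithelia, was the minor form. Its share of the Celsr TPM was 2.17% to 5.36% in knockout and 0.537% to 5.86% in control libraries. It had 7.76, 12.1, 20.5 and 18.1 CPM in the NX, NY, QT and RM knockout libraries, against 2.17, 21.1, 40.0 and 17.4 CPM in the control libraries, an 18.4-fold spread among controls. The log2 fold change of -0.47 with a standard error of 0.61 was smaller than that spread, and it was 0.11 without the QT control library. Cycling-cell markers moved with it in part: the NX libraries were lowest for both, with a summed 195 CPM of the 12 cycling markers in knockout and 142 CPM in control. The other 3 knockout libraries held 1227 to 1426 CPM of cycling markers beside 12.1 to 20.5 CPM of Celsr1, and the other 3 control libraries held 530 to 874 CPM of cycling markers beside 17.4 to 40.0 CPM of Celsr1. The controls had the higher Celsr1 in 2 of these 3 prefixes and the lower cycling sum in all of them. The part of cycling cells in the Celsr1 difference was not tested. Celsr2 ran in the same library order as Celsr1 within knockout libraries (NX, NY, RM, QT from low to high), and in control libraries NX was lowest and QT highest for both.

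**Figure D3:**
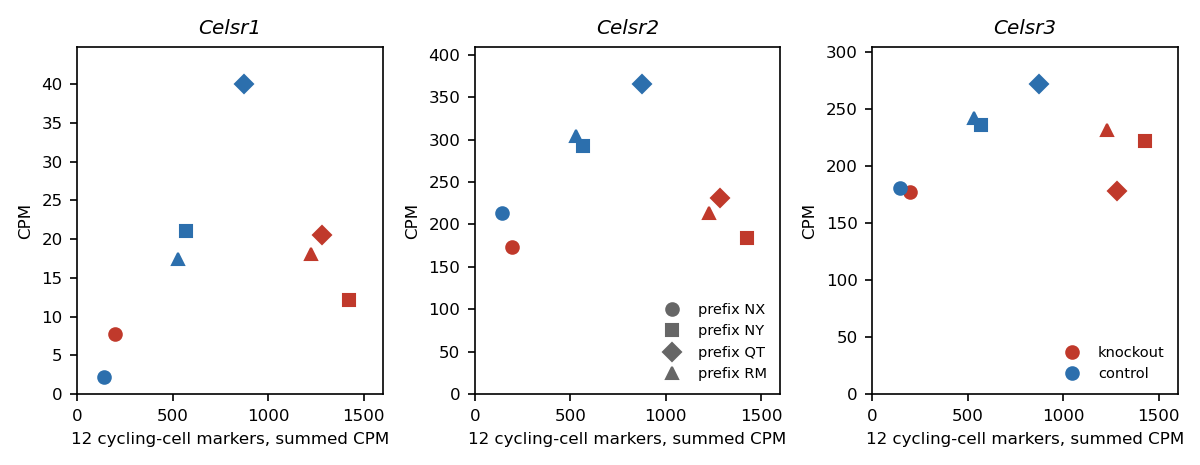
Celsr1, Celsr2 and Celsr3 CPM in each library against the summed CPM of the 12 cycling-cell markers (linear axes), with knockout libraries in red, control libraries in blue and marker shapes for the title prefix. The NX libraries lie at the left of each panel, and Celsr1 is lowest there at 7.76 CPM in knockout and 2.17 CPM in control.

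Of the 9 members that passed the low-count filter, 0 were called by edgeR's quasi-likelihood test at a Benjamini-Hochberg adjusted p under 0.05, against 0.0353% of all 14157 genes tested. At an unadjusted p under 0.05 there were 3 (Wnt5a, Celsr2 and Dact1), against 3.62% of all genes. DESeq2 called 2 (Wnt5a and Dact1), against 0.205% of the genes it adjusted, and limma-voom called 0. Dact1 was the 1 member whose CPM did not overlap between groups, against 2.59% of all genes in either direction. Because the genes were chosen with this contrast known, nothing is read from these counts. The p-values of all tests here measure the spread between pooled libraries, which the labels do not state to be independent litters. The members' median log2 fold change was -0.24, against -0.01 over all genes tested.

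**Figure D4:**
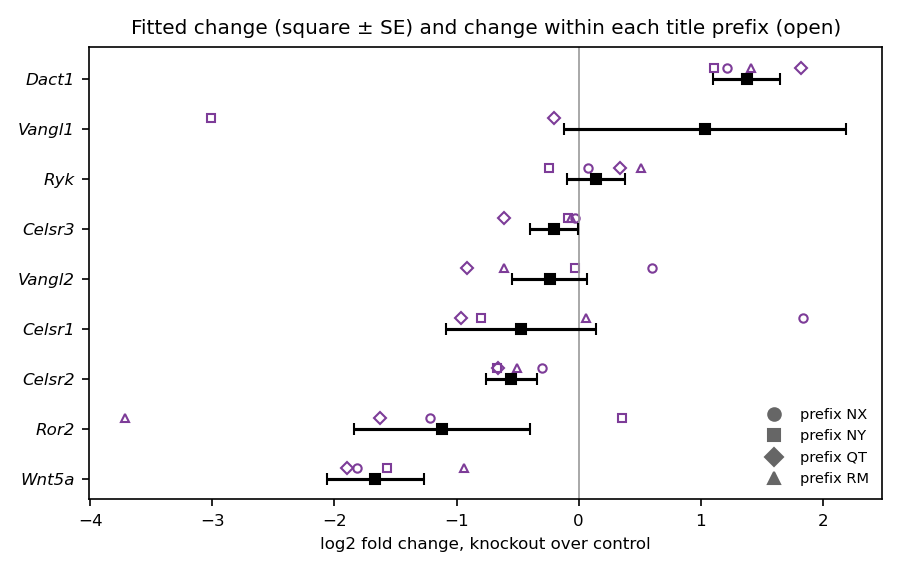
Fitted log2 fold change, knockout over control, of the 9 tested members (squares, bars for ± 1 standard error), with the log2 ratio of CPM within each title prefix as open symbols; for Vangl1 none is drawn in NX and RM, where its control count was 0. All open symbols lie below 0 for Wnt5a (fitted -1.66), Celsr2 (fitted -0.55) and Celsr3 (fitted -0.20), and above 0 for Dact1 (fitted 1.37). Those of Ror2 are the most scattered.

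Around the 10 members, 6 lists of pathway genes were compared, 117 genes in all, of which 83 passed the low-count filter. None of the 83 was called (edgeR's quasi-likelihood test, adjusted p under 0.05), against 0.0353% of all genes tested. At an unadjusted p under 0.05 there were 5 (Sfrp1 higher, and Wnt3, Wnt7a, Fat3 and Dkk2 lower), against 3.62% of all genes. DESeq2 called 1, Wnt3, against 0.205% of the genes it adjusted. The CPM of 5 of the 83 did not overlap between groups (Sfrp1, Wnt3, Wnt7a, Dkk2 and Map2k7), against 2.59% of all genes. In TPM, Wnt3 and Dkk2 still stood apart, while Sfrp1, Wnt7a and Map2k7 overlapped. Every difference named in the next paragraphs is therefore a fitted value that did not pass the test over all genes. These lists, too, were chosen with earlier results of these data known. Nothing is therefore read from these counts or from the list medians below. Wnt7b, Wdpcp, Prkca, Rac1 and Ctnnb1 overlap exons of another annotated gene, so their counts may hold fragments of it.

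Other Wnt ligands were few. Of 18 listed, 6 passed the filter (Wnt2b, Wnt3, Wnt4, Wnt5b, Wnt7a and Wnt7b), and all 6 had a fitted value below 0. Their median was -0.57, against -0.01 over all genes. Wnt4, however, was below 0 in 17 and Wnt2b in 21 of 24 alternatives. Robust quasi-likelihood and a looser adjusted p of 0.1, both among the 24, leave the fitted value unchanged. The fitted values of Wnt4 (-0.07, standard error 0.66), Wnt2b (-0.27, standard error 0.82) and Wnt5b (-0.74, standard error 1.15) were smaller than their errors. The same held for Wnt7b (-0.40, standard error 0.49). Wnt7a, a ligand of the developing forebrain, had 40.7, 30.6, 19.8 and 20.0 CPM in the NX, NY, QT and RM knockout libraries, against 47.4, 40.9, 61.2 and 48.9 CPM in the control libraries. The groups stood just apart, 40.7 CPM in the NX knockout library against 40.9 CPM in the NY control library, at a log2 fold change of -0.83 with a standard error of 0.27 (edgeR's quasi-likelihood test, adjusted p = 1.00). Wnt3, which signals mainly through beta-catenin, had 0.340, 2.90, 1.98 and 1.16 CPM in the NX, NY, QT and RM knockout libraries, against 8.49, 5.92, 9.72 and 7.09 CPM in the control libraries. Its groups did not overlap, at a log2 fold change of -2.29 with a standard error of 0.61 (edgeR's quasi-likelihood test, adjusted p = 0.690). Wnt7b averaged 7.82 CPM in knockout and 10.3 CPM in control libraries, with a log2 fold change of -0.40.

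Frizzled receptors, the receptors shared by all Wnt branches, were evenly divided, with 3 of the 6 tested fitted higher and 3 lower and a median of 0.04. Fzd3, the Frizzled that acts with Celsr3 in axon guidance, had the highest level per length of this list, at 107 TPM in knockout and 97.2 TPM in control libraries. In CPM it averaged 756 ± 129 in knockout and 666 ± 91.3 in control libraries (SD, n = 4 each), at a log2 fold change of 0.18 with a standard error of 0.20. Fzd8 (0.71, standard error 0.46) and Fzd1 (-0.38, standard error 0.40) had the smallest p-values of the remaining Frizzled genes, both with log2 fold changes of the order of their errors.

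Of 24 planar polarity partners listed, 22 were tested, with 8 fitted higher, 14 lower and a median of -0.15. Fat3, an atypical cadherin of developing neurons, averaged 163 ± 56.3 CPM in knockout and 280 ± 128 CPM in control libraries (SD, n = 4 each), at a log2 fold change of -0.78 with a standard error of 0.34. The Dishevelled gene Dvl3, whose product Dact1 can bind, averaged 86.5 CPM in knockout and 106 CPM in control libraries, at a log2 fold change of -0.29 with a standard error of 0.20. Wdpcp, a planar polarity effector linked to cilia, had a log2 fold change of 0.70 with a standard error of 0.50.

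Downstream, 24 of 25 cytoskeletal and calcium effectors were tested, with 15 fitted higher, 9 lower and a median of 0.13. The small GTPase gene Rac1, the highest of them per length, averaged 373 CPM in knockout and 381 CPM in control libraries, at a log2 fold change of -0.03 with a standard error of 0.21 that changed sign when single libraries were left out. Daam2, a formin activated by Dishevelled, had 1.50, 14.7, 16.3 and 30.3 CPM in the NX, NY, QT and RM knockout libraries, against 3.22, 8.44, 8.72 and 8.18 CPM in the control libraries, so that NX was the lowest library of both genotypes. It averaged 15.7 ± 11.8 CPM in knockout and 7.14 ± 2.62 CPM in control libraries (SD, n = 4 each), at a log2 fold change of 1.13 with a standard error of 0.65, and of 0.34 by limma-voom. Prkca and Camk2a, kinases of the calcium branch, had log2 fold changes of 0.34 (standard error 0.21) and -0.64 (standard error 0.40). Map2k7, a kinase of the JNK branch, was picked out after its values were seen because its groups did not overlap in CPM. It averaged 62.0 ± 4.66 CPM in knockout and 75.0 ± 6.94 CPM in control libraries (SD, n = 4 each). Its log2 fold change was -0.27 with a standard error of 0.18.

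Of 20 secreted modulators and Wnt processing genes, 9 were tested, with 3 fitted higher, 6 lower and a median of -0.17. Sfrp1, a secreted Wnt-binding protein, had 182, 194, 246 and 200 CPM in the NX, NY, QT and RM knockout libraries, against 53.4, 88.2, 166 and 108 CPM in the control libraries. Its groups did not overlap in CPM. Its log2 fold change was 0.98 with a standard error of 0.29 (edgeR's quasi-likelihood test, adjusted p = 0.939). Dkk2, a secreted modulator of the Lrp5 and Lrp6 co-receptors, had 0.817, 3.23, 0.913 and 3.33 CPM in the NX, NY, QT and RM knockout libraries, against 7.998, 5.55, 7.73 and 5.63 CPM in the control libraries. Its groups did not overlap, and its log2 fold change was -1.70 with a standard error of 0.57. Wls, which carries Wnt proteins to the cell surface, averaged 37.4 CPM in knockout and 25.5 CPM in control libraries, at a log2 fold change of 0.55 with a standard error of 0.25.

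The beta-catenin branch, which Dact1 and Ror2 can also touch, had 9 of its 16 tested genes fitted higher and 7 lower, with a median of 0.06. Its central gene Ctnnb1 averaged 586 CPM in knockout and 555 CPM in control libraries, at a log2 fold change of 0.08 with a standard error of 0.23. The negative regulators Znrf3, Axin1 and Nkd2 had log2 fold changes of -0.76, -0.59 and 0.72, with standard errors of 0.37, 0.35 and 0.44. None of the 3 was called.

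**Figure D5:**
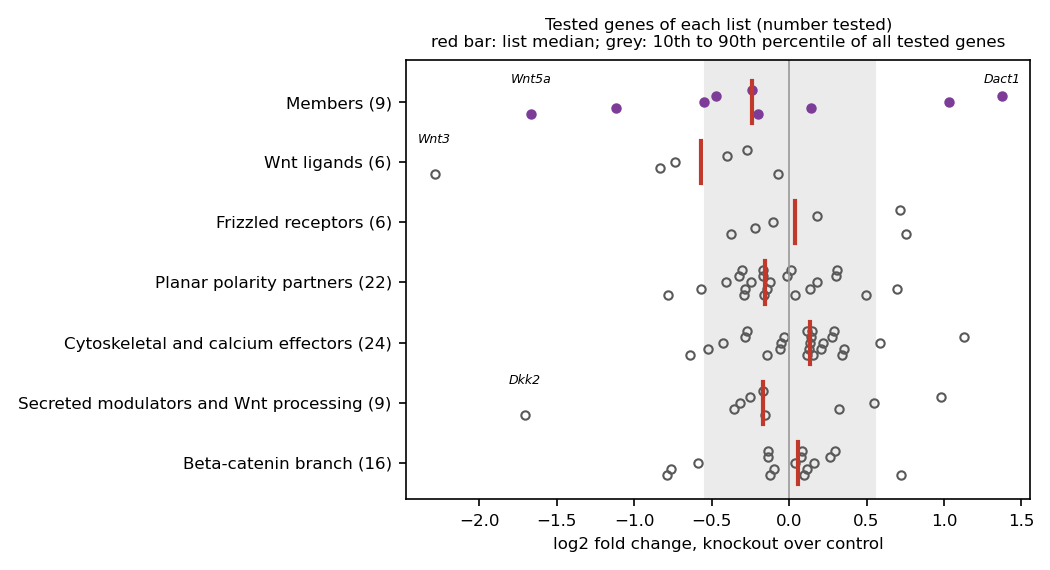
Fitted log2 fold change, knockout over control, of each tested member and of each tested gene on the 6 pathway lists, 1 row per list, with the list median as a red bar and a grey band from the 10th to the 90th percentile of all genes tested (-0.54 to 0.55). The Wnt ligand row has a median of -0.57 and all its points below 0, of which Wnt4 and Wnt2b changed sign in some alternatives, while the Frizzled, effector and beta-catenin rows centre near 0, at 0.04, 0.13 and 0.06. The lists were chosen with earlier results of these data known, so the medians are a description only.

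Of 12871 other genes whose average log2 CPM was 1 or more, 5 had the pattern most like that of Wnt5a over the 8 libraries, by Pearson's r of log2 CPM. These were Rasa3 (r = 0.968, Spearman's rho 0.952), Hgs (r = 0.960, rho 0.929), Sik3 (r = 0.951, rho 0.952), Cecr6 (r = 0.949, rho 0.952) and Acap3 (r = 0.948, rho 0.929). The values are a description of the same 8 libraries, which also share the difference between genotypes and that between prefixes. All 5 had smaller differences than Wnt5a: Rasa3 averaged 13.3 ± 2.54 CPM in knockout and 25.7 ± 6.34 CPM in control libraries (SD, n = 4 each), and the log2 fold changes ran from -0.95 for Rasa3 to -0.45 for Sik3. None of the 5 was called.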

How the data were processed

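Reads were processed by the authors with Trimmomatic 0.33, Bowtie2, RSEM 1.2.22 and the build mm10, per the submitters' processing notes. An annotation release is not given in the sources used here. Amplified cDNA was, per the labels' protocols, made with a NuGEN kit and turned into Nextera XT libraries without molecular identifiers, so floors cover counting error only. The deposited expected counts are RSEM's estimated fragments per gene, and the authors' TPM values are scaled to length and library total. Per the file headers, each sample file also holds the mean transcript length. Matrices and sample files were compared in 16 columns, and the largest difference was 0.

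Rounded to whole numbers, the expected counts were fitted with edgeR 4.0.16 in R 4.3.3: filterByExpr (14157 of 32543 genes kept), TMM, and the quasi-likelihood test with genotype as the only term, adjusted by Benjamini-Hochberg over all genes tested. Of the 10 members, 9 were tested. CPM are TMM-scaled, and each ± is an SD over 4 libraries. Log2 fold changes are knockout over control, with standard errors from the quasi-likelihood F. Alternatives used DESeq2 1.42.0, limma 3.58.1 and other scalings, filters and libraries. The fit was tested on simulated data with known changes.

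The members and lists were chosen with earlier results of these data known. Genes named are the members, Tshz1, in each pathway list any called gene, the 3 with the smallest p and the highest by mean TPM, and the 5 most like Wnt5a; the marker genes this rule also names are given within their list sums. Map2k7, Wnt2b, Wnt4, Wnt5b and the markers named for being at 0 fall outside this rule and were chosen after their values were seen. The symbol Dchs2, listed with the polarity partners, was not matched in the files. The design text speaks of triplicates; all 4 labelled libraries per genotype were used.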

Additional observations from a re-analysis of the deposited data

Results flagged for a closer look

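Among 60 groups of 4 libraries examined for a library far from its group, 2 were flagged, and chance flags about 1 in 20 groups. The NX control library had 3.22 CPM of Daam2, against 8.18 to 8.72 CPM in the other 3 control libraries, so its gap was 0.901 of the group's range, above Dixon's critical value for groups of 4. The NX knockout library was also the lowest of its genotype for Daam2, at 1.50 CPM against 14.7, 16.3 and 30.3 CPM in the other 3 knockout libraries. The RM knockout library had 290.2 CPM of Rac1, against 393 to 405 CPM in the other 3 knockout libraries, a gap of 0.896 of the range. No member of the set was flagged.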

How the results depend on the processing

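The log2 fold changes of Wnt5a (-1.94 to -1.26), Dact1 (1.21 to 1.55), Celsr2 (-0.75 to -0.43), Celsr3 (-0.31 to -0.06), Ryk (0.02 to 0.28), Ror2 (-1.63 to -0.53) and Vangl1 (0.22 to 2.01) kept their sign under all 24 alternatives. Those of Vangl2 (-0.57 to 0.05) and Celsr1 (-1.06 to 0.11) kept it under 22. Among the 24, robust quasi-likelihood and the adjusted p under 0.1 leave the fitted value unchanged, so their sign could not differ. Members called numbered 2 (Wnt5a and Dact1) by DESeq2 and in the replicate block fit, and 0 under the other alternatives; pathway genes called numbered 1 (Wnt3) by DESeq2. Over all genes, the 5 called became 9 without composition factors, 19 without a low-count filter, 37 by DESeq2, 2 by limma-voom, 2 by robust quasi-likelihood, 10 on log2(TPM + 1) and 11 at an adjusted p under 0.1. Leaving out 1 library gave 0 to 5: 0 without the NY or QT knockout or the NX, QT or RM control library (328 to 716 at an unadjusted p under 0.05), and 1 without the RM knockout library. Without both libraries of a prefix there were 3 (NX), 0 (NY), 0 (QT) and 0 (RM), and 0 without the NX control and QT knockout libraries. The cause was not tested, beyond the fewer samples of such fits.

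In a fit with a replicate block for the title prefix, 28 genes were called (11 higher, 17 lower), 0.198% of those tested, and the log2 fold change was -1.57 for Wnt5a (standard error 0.23) and 1.39 for Dact1 (standard error 0.17). The labels do not say what a prefix marks. Deviations from the group means of libraries with the same prefix correlated at 0.385 (NX), 0.303 (NY), 0.0658 (QT) and 0.450 (RM) over 14157 genes. Prefixes were to be taken as pairs only if every such correlation was above 0.1, which QT missed, so the main fit has no block. Still, 3 of 4 knockout and 4 of 4 control libraries correlated best with their own prefix. This is a hint of pairing from the data and not from the design, and pairing is not excluded.

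Tshz1 kept its direction under all alternatives but was not called on log2(TPM + 0.1) (-2.37), without prefix NY (-2.33), prefix QT (-2.16) or prefix RM (-2.18), or without the NX control and QT knockout libraries (-2.11); leaving out 1 library gave -2.55 to -2.12, and it was called in 2 of these 8 fits (without the NX knockout or the NY control library) and not in the other 6. It was called under 13 of the 24 alternatives in all. Rac1 changed sign without both QT libraries (0.032) and ran from -0.17 to 0.078 with 1 library left out. Ctnnb1 changed sign without the NX control and QT knockout libraries (-0.070) and ran from -0.037 to 0.28 with 1 library left out. Wnt3 ran from -2.90 to -1.65 and Daam2 from 0.34 (limma-voom) to 1.51. Precision was lowest where counts were low: Ror1 had 0 in all libraries, Vangl1 0 to 27 and Ror2 1 to 64.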
